A study of Homo sapiens with 4 samples.

Results

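FOXK2 peaks that lay in DNA transposons were taken from both peak lists of OVCAR5 cells by their deposited annotation, which gives a repeat name, class and family for peaks that fall in a repeat. The class was DNA for 305 of the 12471 peaks of replicate 1 (2.45%, 95% Wilson interval 2.19% to 2.73%) and for 816 of the 27281 peaks of replicate 2 (2.99%, 2.80% to 3.20%). OVCAR5 is an established human ovarian cancer cell line, which the labels describe as high grade serous and derived from ascites. ChIP-seq with an antibody against the forkhead transcription factor FOXK2 was done on untreated cells of this line in 2 biological replicates. There was a single condition and a single line, so that no comparison between conditions was possible, and the input libraries were not analysed here. All intervals and Fisher tests below are over peaks, which are not replicates, so they cover counting error only. Peaks of 1 repeat name also descend from 1 ancestral element.

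DNA transposons are mobile elements that move by a cut and paste mechanism, in which a transposase excises the element and inserts it elsewhere. In the human genome they are inactive fossils, and most copies belong to the hAT superfamily, which includes the Charlie elements, or to the Tc1-mariner superfamily, which includes the Tigger elements. Many copies, among them many named MER, are short internally deleted elements that never encoded a transposase of their own. Forkhead factors such as FOXK2 bind a motif with the core TGTTTAC, and AP-1, the dimer of FOS and JUN proteins, binds TGAGTCA.

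The sequences below show the forkhead heptamer in copies of MER58A, Tigger17a and Tigger3b, the names in which it was most frequent among those with at least 30 peaks. Each has 10 bases to each side of TGTTTAC, in capitals, is read 5′ to 3′ on the strand that carries the heptamer, and has hg38 coordinates and the gene that the list assigned to its peak. For each name, up to 5 copies are shown, taken in order of mean score percentile from peaks that both lists share and that held the heptamer in both. Copies on 1 chromosome were passed over, as given with the processing, so the order has gaps.
MER58A, BMPER, chr7:34166079-34166105, plus strand: tggccttacaTGTTTACtatctggacc
MER58A, THSD7A, chr7:11592898-11592924, plus strand: cacgctcagtTGTTTACatattacctc
MER58A, LINC02027, chr3:81249760-81249786, minus strand: cacactcattTGTTTACatatgatctg
MER58A, SLX4IP, chr20:10512152-10512178, minus strand: catgctcactTGTTTACatattgccta
MER58A, MIR6507, chr10:98899177-98899203, minus strand: catgtattctTGTTTACatgtcgtttg
Tigger17a, TCF12, chr15:57003582-57003608, plus strand: aaaggactctTGTTTACattataagag
Tigger17a, ITGAE, chr17:3818995-3819021, minus strand: aacagacgctTGTTTACagcatgagat
Tigger17a, LOC100506869, chr12:58529234-58529260, minus strand: aaaggactctTGTTTACaatataaaag
Tigger17a, MRFAP1L1, chr4:6704029-6704055, minus strand: aaaaggaactTGTTTACagcatgagag
Tigger17a, COL21A1, chr6:56380635-56380661, minus strand: aaaggacactTGTTTACagtatgagaa
Tigger3b, LINC02428, chr4:103443557-103443583, minus strand: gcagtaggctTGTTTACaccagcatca
Tigger3b, SEMA6D, chr15:47519257-47519283, plus strand: acagtaggctTGTTTACactggcatca
Tigger3b, HDAC9, chr7:18374934-18374960, minus strand: agattaggctTGTTTACaccaccatca
The likeness of the bases outside the capitals is measured over all copies further on. MER20 and MER44B nearly always lacked the heptamer. The sites below are the AP-1 motif TGAGTCA, in capitals, in the first 4 MER44B peaks chosen in the same way.
MER44B, LINC00924, chr15:95560001-95560027, plus strand: ggctactaagTGAGTCAtgggcagaca
MER44B, TMSB10, chr2:84920030-84920056, plus strand: gacaaagggaTGAGTCAcatcctggga
MER44B, FAM241A, chr4:112170594-112170620, plus strand: gacaaaagcaTGAGTCAtgtcccgagc
MER44B, LINC00648, chr14:48351124-48351150, minus strand: cccccacgtgTGAGTCActtaatagct
Whole peaks with and without the heptamer are shown by the best-scoring shared Tigger17a and MER20 peaks, with the coordinates of the replicate 1 list. Capitals mark TGTTTAC or TGAGTCA on either strand, the latter read as TGACTCA on the strand shown.
Tigger17a, TCF12, chr15:57003488-57003698, plus strand: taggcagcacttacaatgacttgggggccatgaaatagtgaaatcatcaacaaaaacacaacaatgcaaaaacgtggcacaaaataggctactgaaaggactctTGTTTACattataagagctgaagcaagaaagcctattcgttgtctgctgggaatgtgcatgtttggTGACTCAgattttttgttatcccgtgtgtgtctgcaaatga
MER20, ZMYND8, chr20:47360240-47360450, plus strand: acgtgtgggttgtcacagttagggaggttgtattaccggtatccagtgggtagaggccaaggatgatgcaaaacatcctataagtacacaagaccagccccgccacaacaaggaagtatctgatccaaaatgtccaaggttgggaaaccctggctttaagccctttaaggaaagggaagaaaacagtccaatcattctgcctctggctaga
The Tigger17a peak held 1 forkhead heptamer and 1 AP-1 motif, whereas the MER20 peak held neither.

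The peaks were spread over many elements rather than concentrated in a few. They carried 111 repeat names from 12 families in replicate 1 and 148 names from 15 families in replicate 2, and 59 and 40 of those names had a single peak. hAT-Charlie was the most frequent family, with 143 peaks in replicate 1 and 350 in replicate 2, followed by TcMar-Tigger with 104 and 326. hAT-Tip100 had 20 and 59 peaks, hAT-Blackjack 17 and 26, and TcMar-Tc2 8 and 12, and the remaining families had at most 3 in replicate 1 and at most 11 in replicate 2. The 5 names with at least 30 peaks in replicate 2 were MER58A with 36 and 73 peaks in the respective replicates, MER20 with 18 and 56, MER44B with 10 and 42, Tigger3b with 11 and 38, and Tigger17a with 13 and 33. How many copies of each element the genome holds was not analysed here. In replicate 1 Tigger3b and Tigger17a both had more peaks than MER44B, whereas in replicate 2 both had fewer.

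**Figure D1:**
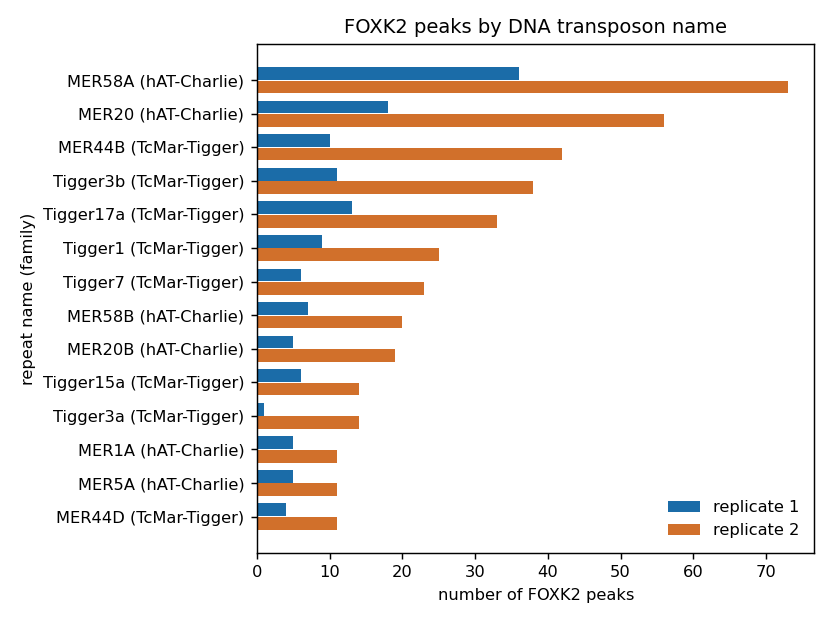
Number of FOXK2 peaks (x axis, starting at 0) in each of the 14 DNA transposon names most frequent in replicate 2, with the family in parentheses; bars are single peak lists, so they carry no error. MER58A leads in both replicates with 36 and 73 peaks.

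All of these peaks were annotated as intronic (153 in replicate 1 and 430 in replicate 2) or intergenic (152 and 386). Repeats were in effect annotated only there, since 1 of the 2394 repeat peaks of replicate 1 and 0 of the 5911 of replicate 2 lay elsewhere. Intron and intergenic peaks outside DNA transposons, 8811 and 20213 in number, are therefore given beside the comparison with all other peaks, which include promoters. The median distance to the assigned transcription start site was 30580 bp in replicate 1 and 36767.5 bp in replicate 2, against 31187 bp and 33165 bp for the other intron and intergenic peaks. Within 10000 bp of the start site lay 57 peaks (18.7%) and 140 peaks (17.2%), and 70 (23.0%) and 187 (22.9%) lay beyond 100000 bp. The base composition was lower in G and C than at comparable peaks, with a median GC content within 100 bp of the centre of 41.8% and 40.8% against 44.3% in both replicates for other intron and intergenic peaks. These values were not tested.

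The forkhead heptamer marked the DNA transposon peaks far above their surroundings. TGTTTAC lay on either strand within 100 bp of the centre of 119 of 305 peaks in replicate 1 (39.0%, Wilson interval 33.7% to 44.6%) and of 292 of 816 in replicate 2 (35.8%, 32.6% to 39.1%). Equally wide control windows at a distance of 2000 bp on both sides held it in 3.11% and 2.88% of cases (odds ratios 19.9 and 18.8, two-sided Fisher's exact test, adjusted p = 1.71e-43 and 3.81e-104). Here and below, p-values were adjusted by the Benjamini-Hochberg method over 44 tests, of which 20 fell under 0.05.

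Against other FOXK2 peaks the difference was smaller and did not pass in every setting. Of all peaks outside DNA transposons, 30.3% in replicate 1 and 27.9% in replicate 2 held TGTTTAC (differences of 8.69 and 7.85 percentage points, two-sided Fisher's exact test, adjusted p = 0.00503 and 1.04e-05). In replicate 1 this did not pass the exact test with a window of 50 bp (4.32 points, adjusted p = 0.182) or among the higher-scoring peaks of the list (6.76 points, adjusted p = 0.203). Of the intron and intergenic ones, 35.8% and 32.6% did, and the difference of 3.23 points (Newcombe interval -2.17 to 8.90) in replicate 1 and 3.21 points (-0.0740 to 6.62) in replicate 2 no longer passed the exact test (adjusted p = 0.439 and 0.126). The heptamer was less frequent than in LINE peaks, where it was in 46.8% and 45.8% (adjusted p = 0.0406 and 4.18e-06, two-sided Fisher's exact test). It did not pass the test against LTR peaks, with 41.1% and 36.2% (differences of -2.07 points, -8.55 to 4.59, and -0.390 points, -4.34 to 3.64). Nor did it against SINE peaks, with 32.0% and 31.1% (differences of 6.99 points, -0.774 to 14.6, and 4.72 points, -0.228 to 9.58).

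Among the DNA transposons, several repeat names differed in the heptamer, while no family tested did so beyond the threshold. It was in 42.0% and 37.1% of hAT-Charlie peaks, in 38.5% and 37.4% of TcMar-Tigger peaks and in 45.0% and 32.2% of hAT-Tip100 peaks, and none of these 3 families differed from the other DNA transposon peaks by the two-sided Fisher's exact test (adjusted p from 0.512 to 0.902). The intervals of the differences were wide for hAT-Tip100, from -13.6 to 27.9 points in replicate 1 and from -14.9 to 9.26 in replicate 2. They were -5.37 to 16.3 and -4.23 to 9.03 for hAT-Charlie, and -12.0 to 10.7 and -3.94 to 9.47 for TcMar-Tigger. The smaller families were not tested. Within hAT-Charlie, MER58A peaks held it in 22 of 36 (61.1%, 44.9% to 75.2%) and 41 of 73 (56.2%, 44.8% to 67.0%), above the other DNA transposon peaks (two-sided Fisher's exact test, adjusted p = 0.0159 and 0.00107). MER20, of the same family, held it in 1 of 18 (5.56%, 0.988% to 25.8%) and 4 of 56 (7.14%, 2.81% to 17.0%), below the others (two-sided Fisher's exact test, adjusted p = 0.0059 and 4.18e-06). The same family thus held a name above and a name below the remaining peaks in both replicates.

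TcMar-Tigger showed the same division. Tigger17a peaks held the heptamer in 10 of 13 (76.9%, 49.7% to 91.8%) and 22 of 33 (66.7%, 49.6% to 80.2%), above the other DNA transposon peaks (two-sided Fisher's exact test, adjusted p = 0.0175 and 0.00107). Tigger3b peaks held it in 24 of 38 in replicate 2 (63.2%, 47.3% to 76.6%; adjusted p = 0.00251, same exact test), and in replicate 1 in 6 of 11, which did not pass (54.5%; difference of 16.1 points, -11.0 to 40.9). MER44B is an internally deleted relative of the Tigger elements. It held the heptamer in 0 of 10 peaks (Wilson interval 0% to 27.8%) and in 1 of 42 (2.38%, 0.422% to 12.3%). Both shares lay below those of the other DNA transposon peaks (adjusted p = 0.0186 and 2.47e-06, exact test). The related heptamer TGTTTAT, without TGTTTAC, was in 3 of these 10 and 15 of these 42 MER44B peaks (Wilson intervals 10.8% to 60.3% and 23.0% to 50.8%), against 9.84% and 9.80% of all DNA transposon peaks. This last comparison was chosen after its values were seen and was not tested. The replicates are not independent sets of sites, since many of their peaks coincide.

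**Figure D2:**
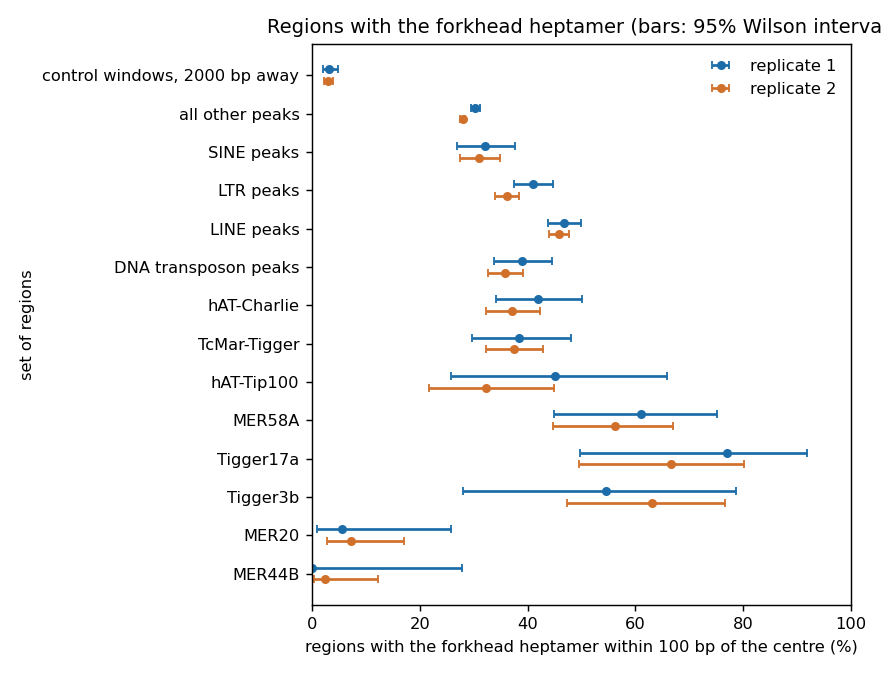
Percentage of regions with the forkhead heptamer TGTTTAC within 100 bp of the centre (x axis) in control windows, in peaks of other classes, in all DNA transposon peaks and in their families and names; points are shares and bars 95% Wilson intervals, for each replicate. MER58A, Tigger17a and Tigger3b lie at 54.5% or more, while MER20 and MER44B lie at 7.14% or less.

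Heptamers stood close to the peak centre. In peaks with a heptamer within 100 bp, the nearest lay at a median of 23 bp from the centre in replicate 1 and 20 bp in replicate 2. At other peaks it was 20 bp and 18 bp. In the 20 bp around the centre there were 10.5 heptamers per 100 DNA transposon peaks in both replicates, whereas beyond 400 bp the same width held 0.525 and 0.368. A second heptamer within 100 bp was rare, in 6 peaks of replicate 1 and 20 of replicate 2. The AP-1 motif lay farther out, at a median of 50 bp and 38 bp, counted within the same 100 bp. There were 1.64 and 2.08 AP-1 motifs per 100 peaks in the central 20 bp, and 0.393 and 0.306 in that width beyond 400 bp.

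**Figure D3:**
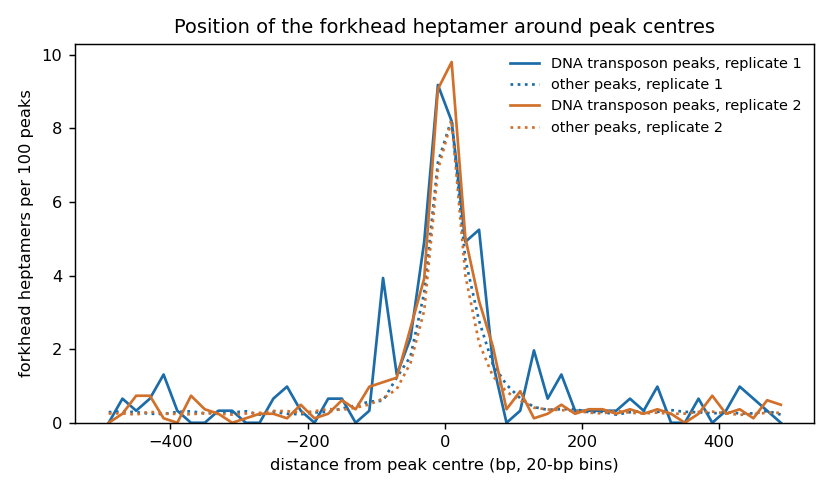
Forkhead heptamers per 100 peaks (y axis) in 20-bp bins by distance from the peak centre (x axis, bp), for DNA transposon peaks (solid) and other peaks (dotted) in each replicate. All 4 lines peak at the centre and fall to a low level beyond 100 bp, and the replicate 1 line of the 305 DNA transposon peaks is the most uneven.

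TGAGTCA, the AP-1 motif, was in 78 DNA transposon peaks of replicate 1 (25.6%, 21.0% to 30.8%) and 190 of replicate 2 (23.3%, 20.5% to 26.3%). All other peaks held it in 16.2% and 16.4% (two-sided Fisher's exact test, adjusted p = 2.03e-04 and 4.42e-06). With a window of 50 bp to each side, the difference in replicate 1 was 2.26 points and did not pass the exact test (adjusted p = 0.339). Among intron and intergenic peaks outside DNA transposons it was in 20.5% and 19.9%, and the difference of 5.04 points (0.392 to 10.3; adjusted p = 0.0812, exact test) did not pass in replicate 1, while that of 3.36 points (0.536 to 6.43; adjusted p = 0.0448) passed in replicate 2. Control windows 2000 bp away held it in 3.44% and 3.31%. Both motifs occurred together in 25 and 49 DNA transposon peaks. Neither was in 133 (43.6%) and 383 (46.9%), against 49.4% and 51.9% of the other intron and intergenic peaks.

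Around the heptamer, copies of MER58A and Tigger17a resembled each other more than copies of different names did in both replicates. Over the 10 positions to each side, the most frequent base was present on average in 77.2% of the 23 Tigger17a copies of replicate 2, in 61.6% of 43 MER58A copies, in 69.3% of 14 copies of MER58B, a relative of MER58A, and in 55.2% of 26 Tigger3b copies. Over all 312 heptamers in DNA transposon peaks it was 37.9%, and the 10 Tigger15a copies stood near that value at 45.5%. In replicate 1 the values were 73.5% for 10 Tigger17a copies, 60.7% for 23 MER58A copies and 85.8% for 6 Tigger3b copies, against 40.0% for all 125 copies. They were 55.0% for 5 MER58B copies and 57.5% for 4 Tigger15a copies. Small numbers of copies raise this measure, which the mean identity between pairs of copies, added after seeing the data, avoids. By pair identity, copies of different names were equal at 28.8% of flanking positions in replicate 1 and 28.4% in replicate 2. Tigger17a reached 58.6% and 61.6%, MER58A 43.6% and 44.5%, and Tigger3b 75.3% and 38.6%. MER58B stood at 30.5% in replicate 1 and 53.7% in replicate 2, and Tigger15a, at 29.2% and 28.6%, stood near the value between names in both. Copies of 1 element share descent, so no test was made.

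The most frequent bases of MER58A and MER58B were equal at 17 of the 20 flanking positions in replicate 2, more than for any other pair of the 5 names with at least 10 copies, whose values lay between 4 and 9. In replicate 1, with 23 and 5 copies, they were equal at 14. The extended site TTGTTTACA, in which the heptamer is preceded by T and followed by A, made up 27 of 43 MER58A copies (62.8%), 17 of 23 Tigger17a copies (73.9%) and 15 of 26 Tigger3b copies (57.7%) in replicate 2. It made up 9 of 14 MER58B copies and 4 of 10 Tigger15a copies. Among all 312 copies it made up 121 (38.8%).

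**Figure D4:**
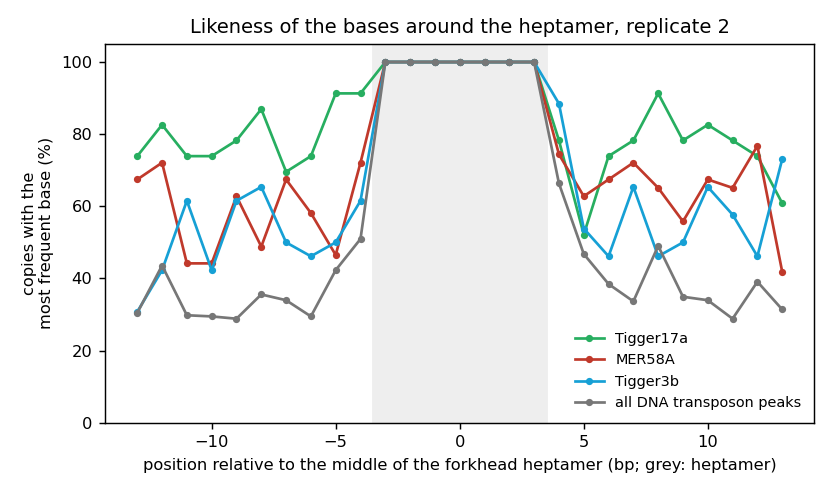
Percentage of copies with the most frequent base (y axis) at each position around the middle of the forkhead heptamer (x axis, bp; grey band: the heptamer, 100% by construction) for replicate 2 copies. Tigger17a runs highest over most flanking positions, with an average of 77.2%, and all DNA transposon copies run lowest with 37.9%.

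DNA transposon peaks were somewhat weaker than other peaks. Scores are scaled to each library and were compared only by rank in their own list. The score ran from 3.4 to 20.8 with a median of 5.47 in replicate 1, and from 3.27 to 35.2 with a median of 6.69 in replicate 2. In percentiles of the list, where 100 is the strongest peak, the medians were 42.6 and 43.5, against 45.9 and 46.9 for the other intron and intergenic peaks. The best DNA transposon peak held rank 247 in replicate 1 and rank 363 in replicate 2, and 11 and 10 had a rank of 1000 or better. They made up 1.09% and 0.993% of the peaks with such a rank, ties included, against 2.45% and 2.99% of the whole lists. The top 10% of the list by score, ties included, held 5.57% and 6.13% of the DNA transposon peaks. Of all other peaks it held 10.2% in both replicates (two-sided Fisher's exact test, adjusted p = 0.0166 and 2.54e-04). The shares at rank 1000 and in the top 10% were not set against intron and intergenic peaks alone. In replicate 1, 45.6% of the DNA transposon peaks lay at or above the median score of the list, against 52.7% of all other peaks (two-sided Fisher's exact test, adjusted p = 0.0340). In replicate 2 it was 44.4% against 50.9% (adjusted p = 0.00107, same exact test). Among other intron and intergenic peaks the shares were 49.7% and 47.0%, and the differences of -4.15 points (-9.75 to 1.56) and -2.62 points (-6.06 to 0.879) did not pass. The focus ratio, the fraction of tags on the expected side of the centre, had medians of 0.769 and 0.765 against 0.758 and 0.755 for all other peaks.

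Most replicate 1 peaks were found again. By at least 1 bp, 216 of 305 overlapped a replicate 2 peak (70.8%, 65.5% to 75.6%), against 75.0% of all other peaks and 73.8% of the intron and intergenic ones, and the difference from all other peaks of -4.20 points (-9.59 to 0.679) did not pass. With both lists limited to the length of the shorter one, it was -8.38 points and passed the exact test (adjusted p = 0.0101). Among the higher-scoring peaks of the list it was -0.517 points, and against LINE, LTR and SINE peaks together -0.659 points. Neither of these passed. In the longer list of replicate 2, 224 of 816 overlapped a replicate 1 peak (27.5%, 24.5% to 30.6%), below the 34.5% of all other peaks (two-sided Fisher's exact test, adjusted p = 1.46e-04) and the 32.1% of intron and intergenic ones (adjusted p = 0.0159). Against LTR, LINE and SINE peaks, each by itself, the overlapped share did not pass the test in either replicate, with differences from -4.33 to 1.95 points. The overlapped share followed the score. With each list divided into 4 equal parts by score, replicate 1 had 51.1% overlapped in the weakest part and 96.5% in the strongest, and replicate 2 had 5.22% and 68.8%. Other intron and intergenic peaks ran likewise, from 49.9% to 96.5% in replicate 1 and 4.58% to 75.2% in replicate 2.

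Both lists placed a DNA transposon peak at 187 sites, in 83 names and assigned to 183 genes, and 186 of the 187 pairs carried the same repeat name. The centres were a median of 29 bp apart, and the score ranks of the pairs correlated with Spearman's rho of 0.84, as a description over 187 sites of the same cell line. The heptamer was in 79 of the 187 at replicate 1 coordinates (42.2%) and in 83 at those of replicate 2 (44.4%), including the same 79. MER58A gave 28 of the shared sites, with the heptamer in both replicates at 17, and Tigger17a gave 9 with 6. MER20 gave 10 and MER44B 9, and 0 of either name held it in both replicates.

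**Figure D5:**
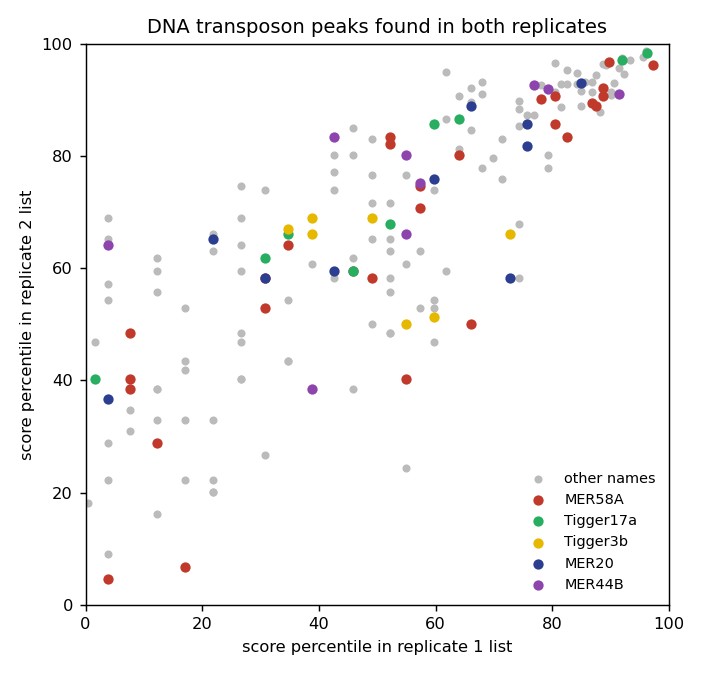
Score percentile in the replicate 1 list (x axis) against that in the replicate 2 list (y axis) for the 187 DNA transposon sites found in both; each point is a site, coloured by name. The points rise together (Spearman's rho 0.84), and sites of MER58A run from the bottom to the top of both axes.

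By mean score percentile over both replicates, the best shared site was a copy of MER102c, a hAT-Charlie element, at chr20:49768469-49768679, at -44139 bp from the start of SLC9A8, which encodes a sodium-proton exchanger. It had a score of 16.2 in replicate 1 and 35.2 in replicate 2, with 1 heptamer. In replicate 1 alone it ranked below the next 2 sites. Next came the Tigger17a copy in intron 3 of 19 of TCF12, a basic helix-loop-helix transcription factor, with scores of 16.4 and 32.4. The MER58A copy 261186 bp from the start of BMPER, which encodes a secreted regulator of BMP signalling, followed with 18.9 and 23.3. All 3 held TGTTTAC, and Tigger1a_Art at 378312 bp from the start of the uncharacterised LOC101927434, with scores of 15.5 and 28.1, held it at 2 places.

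Other strong sites lacked the heptamer. Tigger5b in intron 1 of 19 of TBC1D8, which encodes a TBC domain protein, scored 13.6 and 26.2 with neither motif. Likewise, MER63B at 8329 bp from the start of C11orf91 scored 11.3 and 23.5, and Tigger16a in intron 9 of 9 of GALNT12, an enzyme that starts mucin-type O-glycosylation, scored 11.1 and 23.9. In replicate 1 the Tigger16a peak held the related heptamer TGTTTAT within 100 bp of its centre, and the MER63B peak did not. Of the 3 Tigger5b peaks of replicate 2, 2 held TGTTTAC and 1 held TGTTTAT without it. MER44B at 126893 bp from the start of LINC00924, with scores of 12.3 and 17.1, held the AP-1 motif alone, as did MER58A in intron 1 of 11 of SLC1A2, a glutamate transporter, with 11.1 and 16.8, and Charlie3 at -24368 bp from the start of OXR1, an oxidation resistance gene, with 12.8 and 20.5.

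Of the 20 sites with the best mean percentile, 11 were TcMar and 9 hAT elements, under 15 names, and 10 were intronic and 10 intergenic. The heptamer was at 13 of the 20 in both replicates, against 79 of all 187 shared sites. The AP-1 motif was at 8 of the 20 in both, against 25.6% and 23.3% of all DNA transposon peaks of the 2 lists. Those with the heptamer included MER1B at 54677 bp from the start of the ribosomal protein gene RPL22L1 (12.6 and 27.4), Tigger17a in an intron of ZMAT4 (12.6 and 26.5), Tigger6a in an intron of the zinc finger gene ZNF507 (12.3 and 22.5) and MER58A in intron 3 of 26 of THSD7A (11.5 and 24.8). Tigger15a was present at -40098 bp from the start of NABP1, which encodes a single-stranded DNA binding protein (10.8 and 20.4). It was also in intron 4 of 9 of PPM1H, a protein phosphatase gene, where the list assigned it to MIRLET7I, a let-7 microRNA gene 157320 bp away (11.7 and 17.0). The others were Tigger7 in an intron of LINC01607 without the heptamer, and Tigger12 assigned to ICOS at 82947 bp, MER58A assigned to LINC02027 at 255981 bp and MER103C in an intron of LINC01339 with it. On chromosome 8 lay 3 of the 20, a count given without the share of all peaks there, so it cannot be called high or low. The best MER20 site, at -3456 bp from the start of ZMYND8, a chromatin reader, came in place 24 with scores of 10.0 and 18.7, and the best Tigger3b site, at 18519 bp from the start of LINC02428, came in place 71 with 7.92 and 9.22.

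Few peaks of the listed genes bear on DNA transposons. Of 17 genes that the study names as FOXK2 targets, unfolded protein response genes or stemness genes, 0 had a DNA transposon peak among their 22 peaks in replicate 1 and 37 in replicate 2. With 2.45% and 2.99% of all peaks in DNA transposons, these counts of 0 are near the background. Of 28 human genes derived from DNA transposases, 1 had a DNA transposon peak, which was 1 of the 8 peaks of these genes in replicate 1 and 1 of 18 in replicate 2. PGBD4, which is derived from a piggyBac transposase, had a MER5B copy 20833 bp from its start that scored 10.0 and 17.5, overlapped between the replicates and held 1 heptamer. In all, the peaks were assigned to 299 genes in replicate 1 and 764 in replicate 2, of which 6 and 48 had at least 2 of them. PDGFC, a platelet-derived growth factor gene, and LINC01619 had 3 each in replicate 2, the most of any gene there, and were named after these counts were seen. The PDGFC peaks lay 199932 to 443018 bp from its start, scored 4.16 to 8.63, and were not overlapped by a replicate 1 peak. Of the LINC01619 peaks, that at 85583 bp scored 21.1 and was overlapped. Those at 364003 bp and 454541 bp scored 8.63 and 4.02 and were not.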

How the data were processed

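According to the study's methods, the authors used Bowtie2 2.2.6 for alignment to hg38 and HOMER 4.10 for peak calling. Per the file headers, each replicate's peaks were annotated separately with HOMER on hg38. The deposited lists give a peak score, scaled to the library, a focus ratio as a fraction, and the distance to the transcription start site. Scores below 10 fell on whole multiples of 0.189 in replicate 1 and 0.149 in replicate 2, within 0.1 of such a unit, so the weakest DNA transposon peaks held 18 and 22 such units. Peaks were used as deposited, without a further threshold.

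Motifs were searched for in hg38, on either strand, up to 100 bp from each peak centre, and peaks overlapped when they shared at least 1 bp. Shares were compared within each replicate by two-sided Fisher's exact tests, with Newcombe intervals for differences. Families with at least 50 and names with at least 30 peaks in replicate 2 were tested. Named sites are the 20 shared sites with the best mean score percentile, the best shared site of each tested name, and peaks of listed genes. The printed copies, none from chromosome 8, and genes with 3 DNA transposon peaks were added to these. The members, motifs and lists were chosen with earlier results of these data known. ZBED8, 1 of the listed genes, was not found in the RefSeq table. The peak lists still assigned it 1 peak in each replicate, outside DNA transposons, and these are counted with the others. Steps were tested on simulated data. Alternatives are given in the closing section. Python 3.11.15, numpy 2.4.6, pandas 2.3.3, scipy 1.17.1, statsmodels 0.14.6, pysam 0.24.0 and matplotlib 3.10.9 were used.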

Additional observations from a re-analysis of the deposited data

How the results depend on the processing

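The excess of TGTTTAC over control windows passed in both replicates under all 7 alternatives for each. It was 27.5 to 40.5 percentage points in replicate 1 and 27.7 to 37.6 in replicate 2. The upper ends came from counting TGTTTAC or TGTTTAT, and the highest values with TGTTTAC alone were 39.2 and 35.9. The comparisons with other peaks were less stable, and for each change below the cause was not tested. With intron and intergenic peaks only, TGTTTAC fell short of the threshold at 3.23 points in replicate 1 and 3.21 in replicate 2. So did scores at or above the list median, at -4.15 and -2.62, and TGAGTCA in replicate 1, at 5.04. With LINE, LTR and SINE peaks as the comparator, chosen after seeing the data, TGTTTAC reversed to -3.79 points in replicate 1, which did not pass the exact test (adjusted p = 0.377), and to -4.79 in replicate 2, which passed as lower in DNA transposon peaks (adjusted p = 0.0237). With the same comparator, TGAGTCA in replicate 1 fell short at 4.92, and the overlap in replicate 2 at -1.42. With a window of 50 bp, TGTTTAC and TGAGTCA in replicate 1 fell short at 4.32 and 2.26 points, and with the higher-scoring peaks TGTTTAC in replicate 1 did at 6.76. With lists of equal length the overlap in replicate 1 passed at -8.38 points. The share of DNA transposon peaks moved to 2.12% in replicate 1 and 2.62% in replicate 2 among higher-scoring peaks, and to 2.53% in replicate 2 with lists of equal length. The other 70 values kept their direction and their side of the threshold, or moved within their interval. No paired analysis was possible because there is a single condition and the input libraries were not analysed here. Leaving out a replicate leaves the other's value, and no overlap. Mean identity over pairs in place of the most frequent base, chosen after seeing the data, lowered all 12 flank values, and brought MER58B in replicate 1 and Tigger15a in both to within 2 points of the value between names. Small counts, of 10 to 73 peaks in each tested name and replicate, limit the shares by name.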

Other observations

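The AP-1 motif TGAGTCA also varied between repeat names, in values chosen after they were seen and not tested. It was in 8 of 13 Tigger17a peaks in replicate 1 (61.5%) and 16 of 33 in replicate 2, and in 5 of 10 and 15 of 42 MER44B peaks, of which 0 and 1 held the forkhead heptamer. Tigger7 peaks, in which TGTTTAC was in 0 of 6 and 3 of 23, held it in 4 and 8. MER20 held it in 1 of 18 and 3 of 56 (5.56% and 5.36%), and so was low in both motifs. Among Tigger3b peaks it was in 1 of 11 in replicate 1 and 13 of 38 in replicate 2.

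Most genomic copies of the extended sites lay outside peaks, and the share at peaks differed between the sites. The 15-mers were chosen as the most frequent in replicate 2 peaks of a name, which raises their shares at peaks. Many replicate 1 peaks coincide with those peaks, so the shares in both replicates are a description. The 15-mer cactTGTTTACatat, with the heptamer in capitals, was the most frequent in both MER58A, in 3 of 43 copies, and MER58B, in 2 of 14. Regardless of the repeat it lay in, it occurred 40 times in hg38, of which 3 lay at replicate 1 peaks (7.50%, Wilson interval 2.58% to 19.9%) and 8 at replicate 2 peaks (Wilson interval 10.5% to 34.8%), 5 of these 8 in DNA transposon peaks. The 15-mer cactTGTTTACagta, in 5 of 23 Tigger17a copies, occurred 73 times, with 2 (2.74%) and 6 (8.22%) at peaks. The 15-mer ggttTGTTTACacca, in 4 of 26 Tigger3b copies, occurred 428 times, with 1 (0.234%) and 4 (0.935%) at peaks. The 15-mer taken for Tigger15a, in 1 of 10 copies, occurred 8 times, with 0 and 1 at peaks. For the heptamer alone, 4042 of 478177 genomic occurrences (0.845%) lay at replicate 1 peaks and 8118 (1.70%) at replicate 2 peaks, and for TTGTTTACA 718 of 56166 (1.28%) and 1543 (2.75%) did.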
